A study of Mus musculus with 16 samples.

Results

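The 10 genes described here encode receptors that detect viral nucleic acid and 2 adaptors of some of them: the endosomal Toll-like receptors Tlr3, Tlr7 and Tlr9, the cytosolic RNA helicases Ddx58 (RIG-I) and Ifih1 (MDA5), the sensors Zbp1, Aim2 and Cgas, and the adaptors Mavs and Ticam1. They were listed by name, with no threshold on their levels, from the 55416 genes in the count files. All 10 were found, and all 10 were among the 14770 genes with enough counts to be tested. The levels were measured by poly(A) RNA sequencing in the livers of 16 wild-type C57BL/6J mice, 4 in each of 4 groups. Every mouse received an adenovirus by tail vein at 8 weeks of age, at the same labelled dose. It was either a control vector (Ad-CTRL) or a vector that overexpresses FAT10 (Ad-FAT10), the ubiquitin-like modifier encoded by Ubd. From 4 days later the mice were gavaged with pemafibrate at 1 mpk (Pema), which activates the lipid-sensing nuclear receptor PPARα, or with its vehicle CMC. Gavage was given 18 h and 5 h before the liver was taken, with 5 h of fasting. Groups are named by vector and treatment (Ad-CTRL CMC, for example). No group without an adenovirus was analysed here, so a comparison of Ad-FAT10 with Ad-CTRL sets one vector against another and not infection against none. The promoter that drives FAT10 is not given in the sources used here, and the amount of vector that reached each liver was not analysed.

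Cells detect viruses largely by their nucleic acid. Adenovirus carries a DNA genome, which can meet TLR9 in endosomes, the receptor of unmethylated CpG DNA, and in the cytosol cGAS, which makes the messenger cGAMP for STING, or AIM2, which assembles an inflammasome. RNA made during infection can meet TLR3 (double-stranded RNA) and TLR7 (single-stranded RNA) in endosomes, or RIG-I and MDA5 in the cytosol, and ZBP1 binds nucleic acid in the Z form and can start necroptosis through RIPK3 and MLKL. TLR3 signals through TRIF, the product of Ticam1, whereas RIG-I and MDA5 signal through MAVS on mitochondria. Many of these genes are themselves induced by interferon. In the liver, Kupffer cells, the resident macrophages, take up much of an adenovirus given into the blood, and hepatocytes are the cells it transduces most.

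Library totals ran from 18663498 to 28898229 counts, and levels are given as CPM, counts relative to the TMM-scaled size of their library. A count of 0 allows up to 3 counts, or 0.104 to 0.161 CPM depending on the library (counting error only). This range is relative to the library totals without TMM scaling, so it differs somewhat from the scale of the other CPM values. The thinnest members were Tlr9 with 9 to 218 counts a library, Cgas with 13 to 98, Aim2 with 21 to 161 and Tlr7 with 26 to 214. Ubd followed the vector labels, at 8.64 to 15.2 and 14.2 to 47.8 CPM in the Ad-CTRL groups with CMC and pemafibrate and at 110.5 to 339 and 391 to 546 CPM in the Ad-FAT10 groups. Whether its reads came from the mouse gene or the vector cannot be told apart in these counts. Hepatocyte markers, read as a check of the labelled tissue, summed to 39719 to 107642 CPM. A pair of libraries stood apart for the 10 genes. Ad-FAT10 Pema replicate 3 was the highest of its group for 7 of them and had the group's highest summed Kupffer cell markers, at 755 CPM against 397 to 471 CPM. That sum was mostly Cd5l and the C1q genes. In this group Cd5l had a mean of 211 CPM and Clec4f one of 8.04 CPM. Ad-FAT10 Pema replicate 3 also had the group's highest hepatocyte marker sum, at 61268 CPM. Ad-FAT10 CMC replicate 1 was also the highest of its group for 7, and it had the group's lowest Ubd, at 110.5 CPM against 167 to 339 CPM. Where leaving out either changed whether 1 of the 10 genes passed the test, this is stated.

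Per kilobase of exon, which allows genes to be set beside each other, the 10 genes covered a wide range in each group. In Ad-CTRL CMC livers Mavs came first at 30.6 ± 4.05 CPM per kb (SD, n = 4) and Zbp1 next at 22.5 ± 5.60 CPM per kb, with overlapping libraries. Ifih1 at 10.1 ± 1.52 and Ddx58 at 9.64 ± 1.33 CPM per kb overlapped each other and lay below both. Ticam1 at 5.35 ± 0.966 and Tlr3 at 2.29 ± 0.344 CPM per kb followed, each separate from its neighbours. The lowest 4 were Aim2 at 0.615 ± 0.132, Tlr7 at 0.519 ± 0.116, Cgas at 0.245 ± 0.0505 and Tlr9 at 0.208 ± 0.0812 CPM per kb, where Aim2 overlapped Tlr7 and Cgas overlapped Tlr9.

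The order changed at both ends in Ad-FAT10 livers. Zbp1 moved to first place there, at 58.6 ± 11.3 CPM per kb with CMC and 77.3 ± 9.50 CPM per kb with pemafibrate, and did not overlap Mavs at 27.5 ± 1.21 and 30.7 ± 3.21 CPM per kb. At the low end Tlr9 reached 1.25 ± 0.245 CPM per kb with CMC and overlapped Aim2 at 1.26 ± 0.218 and Tlr7 at 1.22 ± 0.337 CPM per kb. Cgas was the lowest of the 10 there, at 0.599 ± 0.0891 CPM per kb, as it was in Ad-CTRL Pema livers (0.190 ± 0.0451 CPM per kb), below Tlr9 (0.300 ± 0.0423 CPM per kb) without overlap. In Ad-CTRL Pema livers Mavs (41.7 ± 5.77 CPM per kb) and Zbp1 (39.9 ± 18.5 CPM per kb) overlapped, as they did with CMC.

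**Figure D1:**
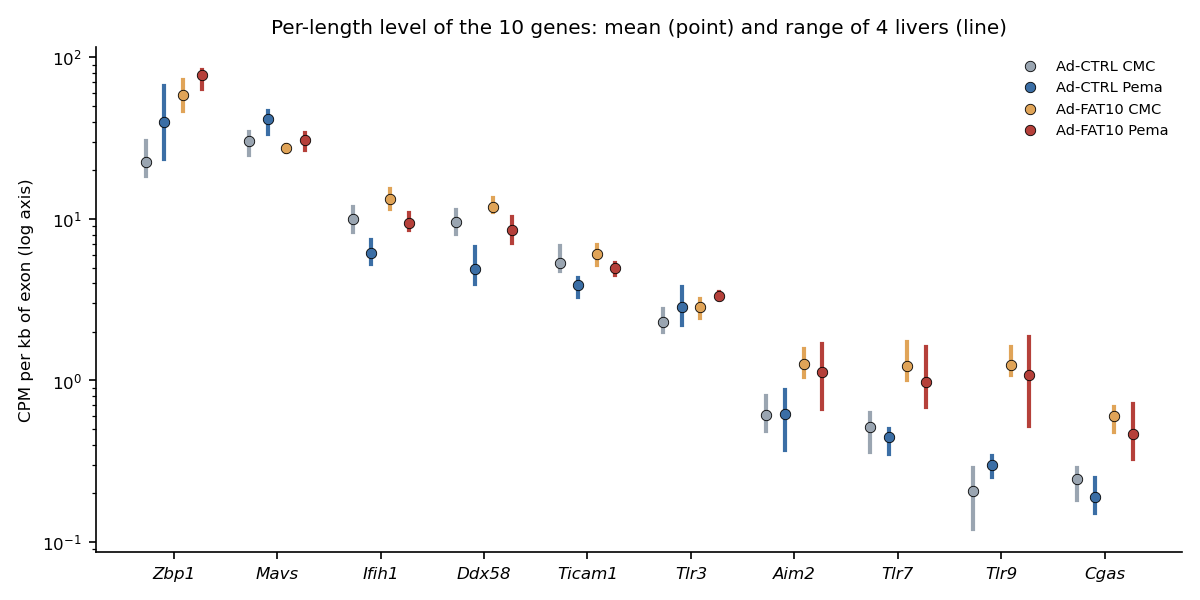
Level per kilobase of exon (CPM per kb, log axis) of the 10 genes in the 4 groups, with points for the mean and lines for the range of 4 livers. Zbp1 stands at 58.6 and 77.3 CPM per kb in the Ad-FAT10 groups, above Mavs, and Tlr9, Tlr7, Aim2 and Cgas stay under 2 CPM per kb in every liver.

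The first question the design puts is how livers given Ad-FAT10 differ from livers given Ad-CTRL. Most of the sensor genes were higher with Ad-FAT10. Under CMC 6 of the 10 rose and none fell: Tlr9 6.05-fold, Zbp1 2.61-fold, Cgas 2.45-fold, Tlr7 2.35-fold, Aim2 2.04-fold and Ifih1 1.31-fold. Under pemafibrate 8 rose, these 6 with Ddx58 (1.74-fold) and Ticam1 (1.26-fold), and Mavs fell. Tlr3 passed the test in neither.

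A gene was called at an adjusted p under 0.05 by the quasi-likelihood test of edgeR, with Benjamini-Hochberg adjustment over all genes tested. The 6 of 10 called higher under CMC stand beside 22.5% of all genes called higher and 20.2% called lower. The 8 higher and 1 lower under pemafibrate stand beside 21.2% and 20.5%. The median log2 change of the 10 genes was 0.71 under CMC and 0.82 under pemafibrate, while that of all genes tested was -0.01 and -0.02. In bulk liver, fewer cells of a type and less RNA per cell cannot be told apart. These comparisons and the ones on pemafibrate share libraries, so they are not independent of each other.

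The other question is how the livers answered pemafibrate, in each vector. In Ad-CTRL livers the RNA helicases fell, Ddx58 1.97-fold and Ifih1 1.63-fold, and Ticam1 fell 1.36-fold, whereas Zbp1 rose 1.78-fold and Mavs 1.37-fold. In Ad-FAT10 livers Ifih1 and Ddx58 fell 1.40-fold each, and no member rose. The 2 of 10 called higher in Ad-CTRL livers stand beside 16.2% of all genes, and the 3 called lower beside 14.4%. In Ad-FAT10 livers the shares of all genes were 12.9% higher and 12.5% lower, beside 0 and 2 members. The median log2 change of the 10 genes was -0.09 with the control vector and -0.24 with Ad-FAT10, against -0.01 for all genes tested in both.

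**Figure D2:**
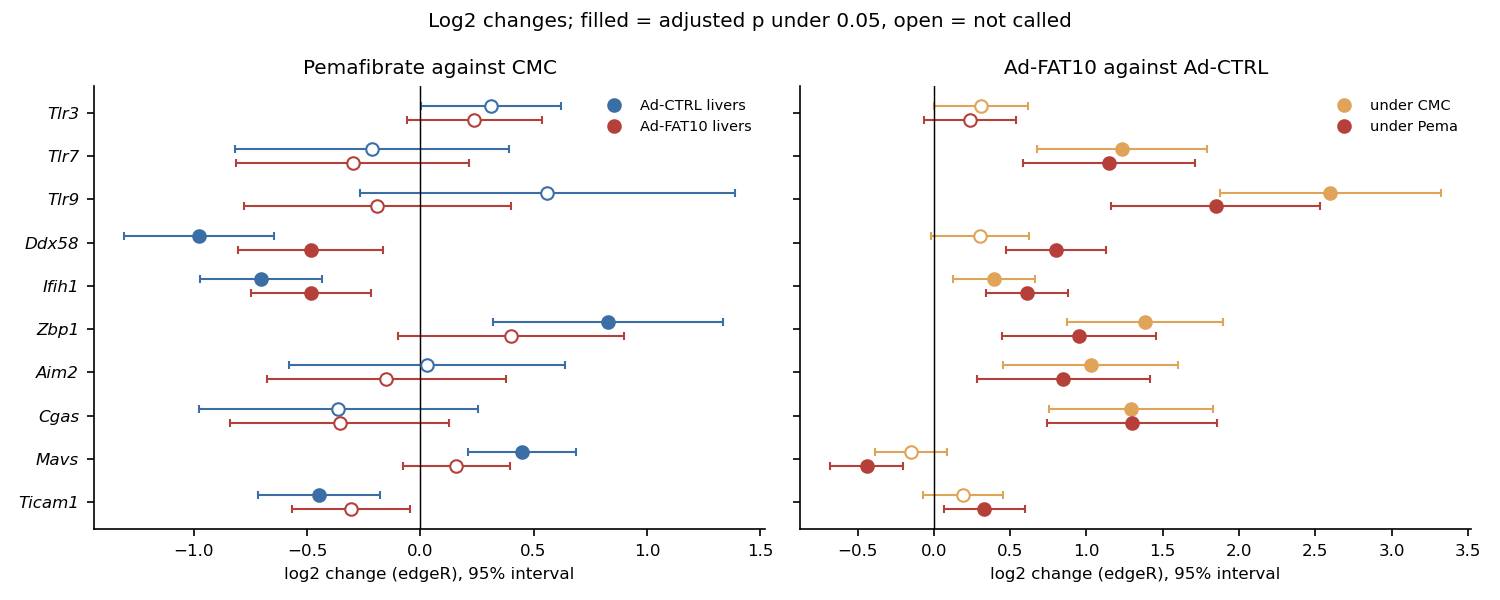
Log2 change of the 10 genes with its 95% interval from edgeR, for pemafibrate against CMC (left) and Ad-FAT10 against Ad-CTRL (right), filled where the adjusted p is under 0.05. Ifih1 and Ddx58 lie left of 0 for pemafibrate with both vectors, and Tlr9 lies farthest right for Ad-FAT10, at 2.60 under CMC and 1.85 under pemafibrate.

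Tlr9, the endosomal DNA receptor, was 0.997, 0.554, 0.416 and 0.926 CPM in Ad-CTRL CMC livers and 0.882, 0.962, 1.15 and 1.19 CPM in Ad-CTRL Pema livers. It was 5.59, 3.75, 4.08 and 3.91 CPM in Ad-FAT10 CMC livers and 1.81, 3.47, 6.47 and 3.28 CPM in Ad-FAT10 Pema livers. All 8 Ad-FAT10 livers were above all 8 Ad-CTRL livers, and the Ad-FAT10 Pema group was spread widest, between its replicates 1 and 3. The log2 change for Ad-FAT10 was 2.60 ± 0.35 (SE, adjusted p = 1.9e-05) under CMC and 1.85 ± 0.32 (adjusted p = 0.000255) under pemafibrate. For pemafibrate the groups overlapped, with log2 changes of 0.56 ± 0.39 in Ad-CTRL livers (adjusted p = 0.318) and -0.19 ± 0.28 in Ad-FAT10 livers (adjusted p = 0.687).

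Tlr7, the endosomal receptor of single-stranded RNA, was 2.29, 1.43, 2.50 and 2.01 CPM in Ad-CTRL CMC livers and 1.87, 1.39, 2.00 and 1.81 CPM in Ad-CTRL Pema livers. It was 6.83, 4.40, 3.97 and 4.19 CPM in Ad-FAT10 CMC livers and 3.24, 3.32, 6.35 and 2.70 CPM in Ad-FAT10 Pema livers. The vectors did not overlap in either treatment, and 1 liver in each Ad-FAT10 group lay well above the other 3. With Ad-FAT10 it rose by 1.23 ± 0.26 on the log2 scale under CMC (adjusted p = 0.00128) and by 1.15 ± 0.27 under pemafibrate (adjusted p = 0.00244). The pemafibrate difference in Ad-FAT10 livers was -0.30 ± 0.24 (adjusted p = 0.421). Without Ad-FAT10 Pema replicate 3 that difference for Tlr7 was -0.65 (adjusted p = 0.0299).

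Tlr3, the double-stranded RNA receptor, passed the test in none of the comparisons. Its mean was 10.3 ± 1.54 CPM in Ad-CTRL CMC livers (8.92 to 12.4), 12.8 ± 3.11 in Ad-CTRL Pema livers (9.87 to 17.0), 12.7 ± 1.48 in Ad-FAT10 CMC livers (11 to 14.4) and 15.0 ± 0.596 in Ad-FAT10 Pema livers (14.3 to 15.8). Groups overlapped in all 4 comparisons. The log2 changes ran from 0.23 to 0.31 with adjusted p from 0.0966 to 0.252. Without Ad-CTRL Pema replicate 2, which had the 17.0 CPM, Tlr3 passed the test for Ad-FAT10 under CMC (0.31, adjusted p = 0.0496) and under pemafibrate (0.40, adjusted p = 0.0219). Without Ad-CTRL CMC replicate 1 it passed for Ad-FAT10 under CMC (0.41, adjusted p = 0.0436), and without Ad-CTRL Pema replicate 4 it passed for pemafibrate in Ad-CTRL livers (0.42, adjusted p = 0.0406). Tlr3 shares 117 exonic bases with Gm45542 on the opposite strand in GENCODE M21, and whether strand was used in the counting is not given in the sources used here.

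Cgas, which turns cytosolic DNA into cGAMP, was 1.17, 0.739, 1.16 and 0.926 CPM in Ad-CTRL CMC livers and 0.830, 1.02, 0.648 and 0.617 CPM in Ad-CTRL Pema livers. In the Ad-FAT10 groups it was 2.80, 1.95, 2.42 and 2.61 CPM with CMC and 1.54, 1.79, 2.91 and 1.33 CPM with pemafibrate. Every Ad-FAT10 liver was above every Ad-CTRL liver. The log2 rise was 1.29 ± 0.26 under CMC (adjusted p = 0.000668) and 1.30 ± 0.27 under pemafibrate (adjusted p = 0.000895). Pemafibrate gave -0.36 ± 0.29 in Ad-CTRL livers (adjusted p = 0.394) and -0.36 ± 0.23 in Ad-FAT10 livers (adjusted p = 0.294), and without Ad-FAT10 Pema replicate 3 the latter was -0.65 for Cgas (adjusted p = 0.0296). Cgas shares 201 exonic bases with Gm8093 on the opposite strand, with the same limit as for Tlr3.

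Aim2, the inflammasome DNA sensor, was 1.75 ± 0.376 CPM in Ad-CTRL CMC livers (1.39 to 2.26) and 3.58 ± 0.619 CPM in Ad-FAT10 CMC livers (2.99 to 4.45). These groups did not overlap, and the log2 change was 1.03 ± 0.27 (adjusted p = 0.0058). With pemafibrate it was 1.77 ± 0.590 CPM in Ad-CTRL livers (1.05 to 2.47) and 1.89, 2.97, 4.78 and 3.12 CPM in Ad-FAT10 livers. Here replicate 1 of Ad-FAT10 Pema fell within the Ad-CTRL range, and the log2 change was 0.85 ± 0.27 (adjusted p = 0.0177). That call for Aim2 was lost without Ad-FAT10 Pema replicate 3 (0.58, adjusted p = 0.0845) or Ad-CTRL Pema replicate 3 (0.66, adjusted p = 0.0637). Pemafibrate gave log2 changes of 0.03 ± 0.29 (adjusted p = 0.957) and -0.15 ± 0.25 (adjusted p = 0.725) in Ad-CTRL and Ad-FAT10 livers.

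Zbp1, the sensor of Z-form nucleic acid, was 66.1, 41.0, 47.8 and 39.9 CPM in Ad-CTRL CMC livers and 69.1, 143, 82.6 and 50.8 CPM in Ad-CTRL Pema livers. It was 115, 100.3, 156 and 136 CPM in Ad-FAT10 CMC livers and 137, 181, 171 and 180.3 CPM in Ad-FAT10 Pema livers. Under CMC all Ad-FAT10 livers were above all Ad-CTRL livers, and under pemafibrate only Ad-CTRL Pema replicate 2 reached into the Ad-FAT10 range. The log2 rise with Ad-FAT10 was 1.38 ± 0.24 under CMC (adjusted p = 0.000252) and 0.95 ± 0.24 under pemafibrate (adjusted p = 0.004). Zbp1 was also the sensor that rose with pemafibrate in Ad-CTRL livers, by 0.83 ± 0.24 (adjusted p = 0.014), with overlapping groups. That rise was 0.47 without Ad-CTRL Pema replicate 2 (adjusted p = 0.0787), and this liver also had the group's highest Ubd, at 47.8 CPM against 14.2 to 26.5 CPM. In Ad-FAT10 livers the log2 change with pemafibrate was 0.40 ± 0.24 (adjusted p = 0.249).

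Ddx58 and Ifih1, the RNA helicases, were the pair that fell with pemafibrate under both vectors. The 250 bases before their annotated starts are shown because these genes moved together. They are from RefSeq on GRCm38.p6, both on the minus strand, at chr2:62646256-62646505 for Ifih1 and chr4:40239826-40240075 for Ddx58, written 5′ to 3′ in the direction of transcription. Capitals mark pairs of GAAA, or TTTC where the pair is on the other strand, with 1 to 4 bases between.
Ifih1: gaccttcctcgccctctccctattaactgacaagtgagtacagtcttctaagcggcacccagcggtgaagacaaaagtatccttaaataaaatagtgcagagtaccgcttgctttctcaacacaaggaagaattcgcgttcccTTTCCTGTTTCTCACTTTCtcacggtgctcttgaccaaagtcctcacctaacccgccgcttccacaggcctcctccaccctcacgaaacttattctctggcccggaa
Ddx58: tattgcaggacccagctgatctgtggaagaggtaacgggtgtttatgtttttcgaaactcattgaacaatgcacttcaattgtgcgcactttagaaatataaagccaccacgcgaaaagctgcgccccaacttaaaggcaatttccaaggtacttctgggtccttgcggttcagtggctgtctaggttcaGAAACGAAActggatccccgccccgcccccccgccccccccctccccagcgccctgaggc
Such pairs, a motif chosen after the sequences were read, occurred in Ifih1 (bases 107 to 97 and 100 to 89 before the start, overlapping) and in Ddx58 (bases 60 to 52). These were 2 of the 8 members with a sequence in the table, and 9.33% of all 32851 RefSeq promoters hold one on either strand. None of the 8 held the interferon-stimulated response element core GAAANNGAAA (2.98% of all promoters), the gamma-activated site TTCNNNGAA (7.02%) or the PPAR motif AGGTCANAGGTCA (0.0335%). Only exact matches on both strands of these 250 bases were searched. Inexact copies and sites elsewhere could not be found, so this does not show that the genes lack such sites. Tlr7 and Zbp1 had no entry.

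Ifih1, which encodes MDA5, the receptor of long double-stranded RNA, was 64.9, 45.5, 57.9 and 51.9 CPM in Ad-CTRL CMC livers and 30.7, 40.6, 35.3 and 28.6 CPM in Ad-CTRL Pema livers. It was 84.1, 71.8, 70.5 and 62.7 CPM in Ad-FAT10 CMC livers and 50.5, 50.0, 59.6 and 46.4 CPM in Ad-FAT10 Pema livers. With each vector all 4 pemafibrate livers were below all 4 CMC livers, and the range of Ad-FAT10 Pema overlapped that of Ad-CTRL CMC. The log2 change with pemafibrate was -0.70 ± 0.13 in Ad-CTRL livers (adjusted p = 0.000393) and -0.48 ± 0.13 in Ad-FAT10 livers (adjusted p = 0.00818). Ad-FAT10 raised it by 0.61 ± 0.13 under pemafibrate without overlap (adjusted p = 0.00103) and by 0.39 ± 0.13 under CMC with overlap (adjusted p = 0.018). The call under CMC was lost for Ifih1 without Ad-FAT10 CMC replicate 1 (0.31, adjusted p = 0.064) or Ad-CTRL CMC replicate 2 (0.31, adjusted p = 0.0686).

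Ddx58, which encodes RIG-I, the receptor of short RNA with a 5′ triphosphate, was 36.2, 31.5, 37.7 and 44.0 CPM in Ad-CTRL CMC livers and 15.4, 25.9, 18.8 and 15.9 CPM in Ad-CTRL Pema livers. It was 52.6, 44.7, 42.9 and 44.4 CPM in Ad-FAT10 CMC livers and 27.6, 36.0, 39.8 and 28.5 CPM in Ad-FAT10 Pema livers. Pemafibrate livers again lay below CMC livers with no overlap under either vector. The log2 change was -0.98 ± 0.16 in Ad-CTRL livers (adjusted p = 0.000119) and -0.48 ± 0.15 in Ad-FAT10 livers (adjusted p = 0.0255). The Ad-FAT10 call for Ddx58 was lost when any 1 of 4 livers was left out, Ad-FAT10 CMC replicate 1 (-0.42, adjusted p = 0.0817) or 2 (-0.48, adjusted p = 0.0599) or Ad-FAT10 Pema replicate 1 (-0.41, adjusted p = 0.0729) or 4 (-0.42, adjusted p = 0.0845). Ad-FAT10 against Ad-CTRL gave 0.80 ± 0.16 under pemafibrate (adjusted p = 0.000621) and 0.31 ± 0.15 under CMC (adjusted p = 0.116). The latter passed when only the groups compared were fitted (0.31, adjusted p = 0.0403).

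Mavs, the mitochondrial adaptor of both helicases, moved the other way. It was 77.2, 96.2, 97.9 and 107 CPM in Ad-CTRL CMC livers and 103, 137, 144 and 132 CPM in Ad-CTRL Pema livers. It was 88.5, 85.8, 79.9 and 86.8 CPM in Ad-FAT10 CMC livers and 100.3, 91.8, 82.9 and 106 CPM in Ad-FAT10 Pema livers. The Ad-CTRL Pema group was the highest of the 4, although its replicate 1 lay below the highest liver of Ad-CTRL CMC and of Ad-FAT10 Pema. Mavs rose with pemafibrate in Ad-CTRL livers by 0.45 ± 0.11 (adjusted p = 0.00544), with a log2 change of 0.16 ± 0.11 in Ad-FAT10 livers (adjusted p = 0.345). Under pemafibrate it was lower with Ad-FAT10, by a log2 change of -0.44 ± 0.11 (adjusted p = 0.00463). Under CMC the difference was -0.15 ± 0.11 (adjusted p = 0.298).

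Ticam1, which encodes TRIF, the adaptor of TLR3, was 16 ± 2.89 CPM in Ad-CTRL CMC livers (14.2 to 20.3) and 11.7 ± 1.34 CPM in Ad-CTRL Pema livers (9.80 to 12.9), without overlap. It was 18.2 ± 2.19 CPM in Ad-FAT10 CMC livers (15.5 to 20.6) and 14.8 ± 1.28 CPM in Ad-FAT10 Pema livers (13.4 to 16). Pemafibrate changed it by -0.45 ± 0.13 in Ad-CTRL livers (adjusted p = 0.0127), and the call was lost without Ad-CTRL CMC replicate 4, the liver at 20.3 CPM (-0.31, adjusted p = 0.0592). In Ad-FAT10 livers the log2 change was -0.30 ± 0.12 (adjusted p = 0.0831), which passed for Ticam1 without Ad-CTRL CMC replicate 4 (-0.30, adjusted p = 0.0406) or Ad-FAT10 CMC replicate 1 (-0.38, adjusted p = 0.0448). Under CMC the Ad-FAT10 difference was 0.19 ± 0.13 (adjusted p = 0.235), and without Ad-CTRL CMC replicate 4 it was 0.32 (adjusted p = 0.034). The Ad-FAT10 rise under pemafibrate, 0.33 ± 0.13, had the weakest call of all (adjusted p = 0.0444). It was lost with DESeq2 (0.33, adjusted p = 0.0516) and in 8 of the 16 fits without 1 library, at adjusted p of up to 0.139.

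**Figure D3:**
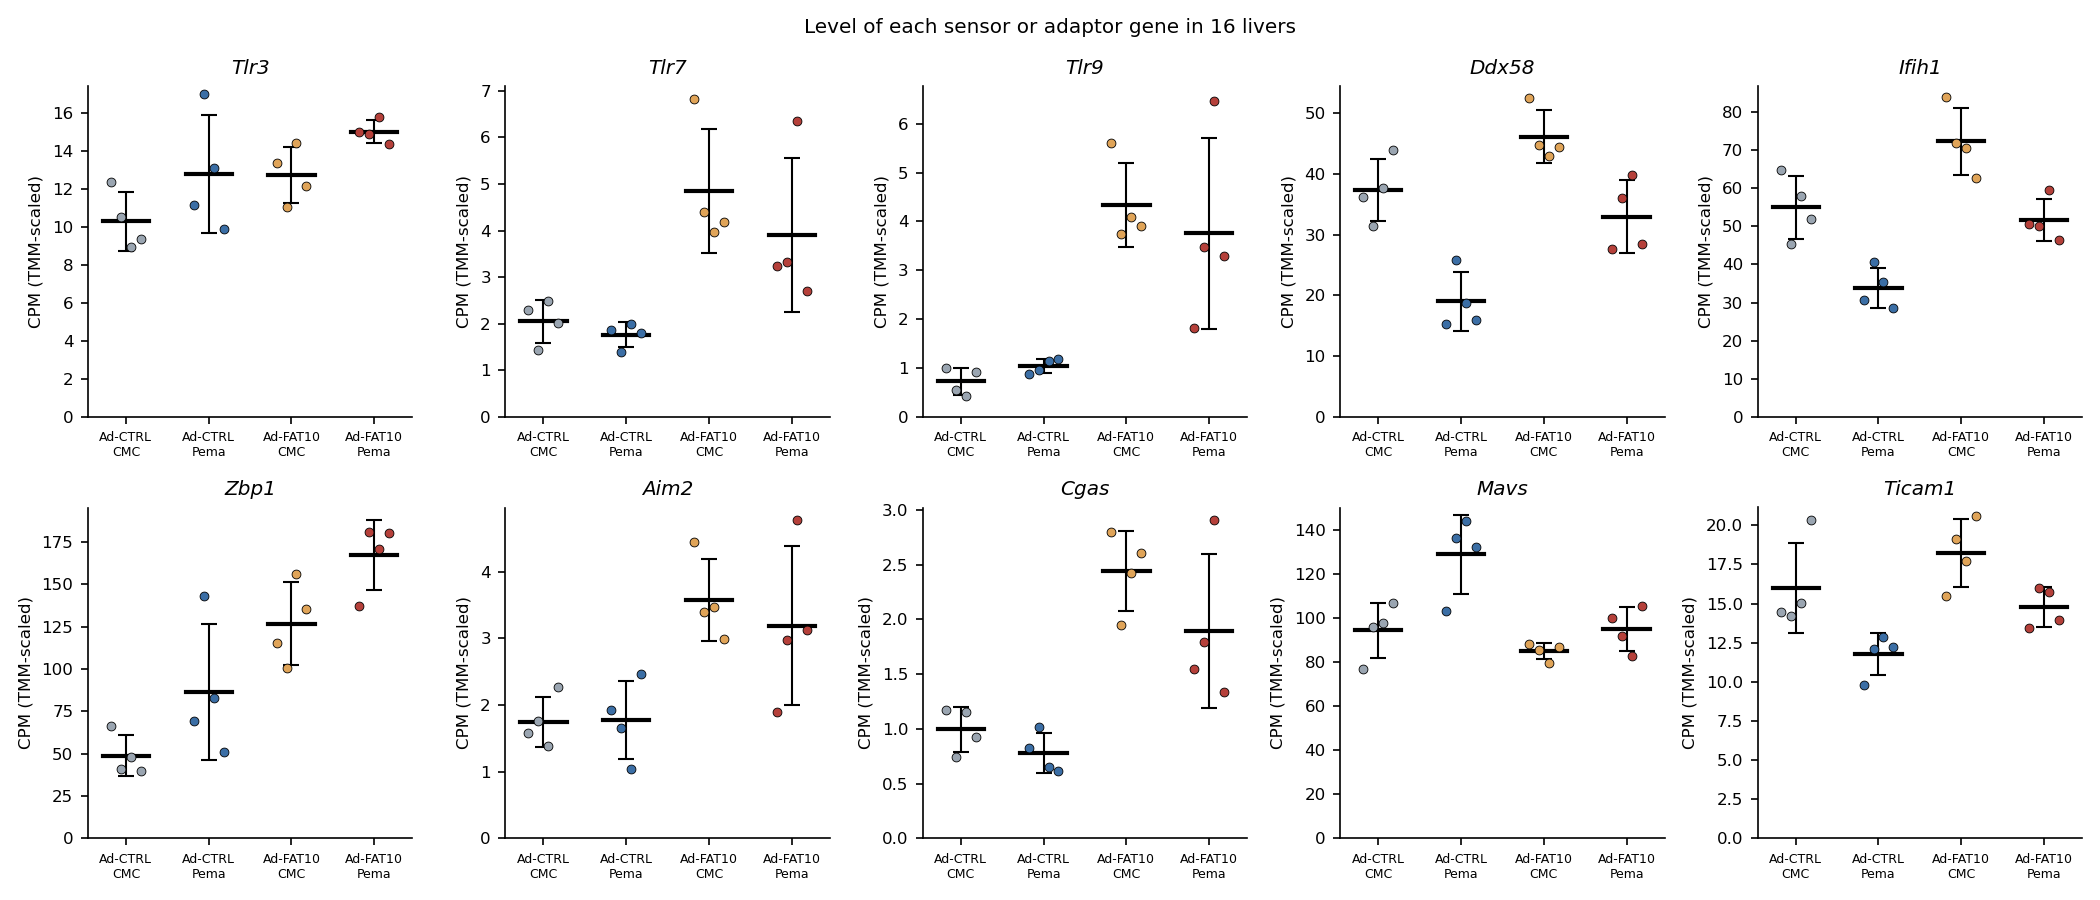
Level (CPM, TMM-scaled, axes from 0) of the 10 genes in each of 16 livers, with points for livers and bars for the mean ± SD of 4. Ddx58 and Ifih1 show the fall with pemafibrate under both vectors, and 1 liver of Ad-FAT10 Pema stands highest for Tlr7 (6.35 CPM), Tlr9 (6.47 CPM), Aim2 (4.78 CPM) and Cgas (2.91 CPM).

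Whether the response to pemafibrate differed between the vectors was tested as an interaction. No member was called by edgeR or by DESeq2, beside 0.0271% of all genes called higher and 0.129% called lower. Only Ddx58 had an unadjusted p under 0.05 (0.0363). Its pemafibrate response was 0.49 higher on the log2 scale in Ad-FAT10 than in Ad-CTRL livers, with a 95% interval of 0.04 to 0.95 and an adjusted p of 0.428. For Ifih1 the difference of responses was 0.22 (-0.16 to 0.60), for Zbp1 -0.43 (-1.14 to 0.28), for Mavs -0.29 (-0.63 to 0.05) and for Tlr9 -0.75 (-1.77 to 0.27). The calls of Zbp1, Mavs and Ticam1 for pemafibrate in Ad-CTRL livers and not in Ad-FAT10 livers are therefore not shown to differ between the vectors.

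Correlations of log2 CPM between members across the 16 livers are given as descriptions, since the points share the 4 groups. Of 45 pairs Ifih1 with Ddx58 had the highest Pearson r, 0.945 over 16 livers and 0.703 after the group means were removed. Tlr7 with Cgas followed at 0.923 (0.651 within groups), Tlr3 with Zbp1 at 0.881 (0.864 within groups) and Tlr9 with Aim2 at 0.872 (0.669 within groups). Close behind were Tlr7 with Tlr9 at 0.869, Ddx58 with Ticam1 at 0.851, Tlr9 with Cgas at 0.849 and Ifih1 with Cgas at 0.812, so the members did not form separate pairs. Within groups Ifih1 with Cgas (0.713) exceeded Ifih1 with Ddx58. The lowest r was that of Ifih1 with Mavs, at -0.794, which was -0.196 within groups.

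Among all tested genes whose mean log2 CPM was 1 or more, the most similar pattern to Ifih1 was that of Hdac1 (r = 0.953), then Ddx60 (0.951), which is a helicase gene too. Ddx60 kept 0.951 within groups. For Ddx58 the first was Hdac1 (0.967), and for Zbp1 it was Igtp (0.964), an interferon-inducible GTPase gene. Cgas was closest to Trim30a (0.970), Spi1 (0.966), which encodes the myeloid factor PU.1, and Slfn8 (0.966). Tlr7 was closest to Fyb (0.953) and Plcg2 (0.951), genes of immune cell signalling, and Tlr9 to Ubash3b (0.970) and Cytip (0.968). Mavs was closest to Lrp4 (0.954) and Foxa1 (0.950), a hepatocyte transcription factor gene, Tlr3 to BC023105 (0.921), Aim2 to Filip1l (0.939) and Ticam1 to Rsu1 (0.933), each over 16 livers.

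**Figure D4:**
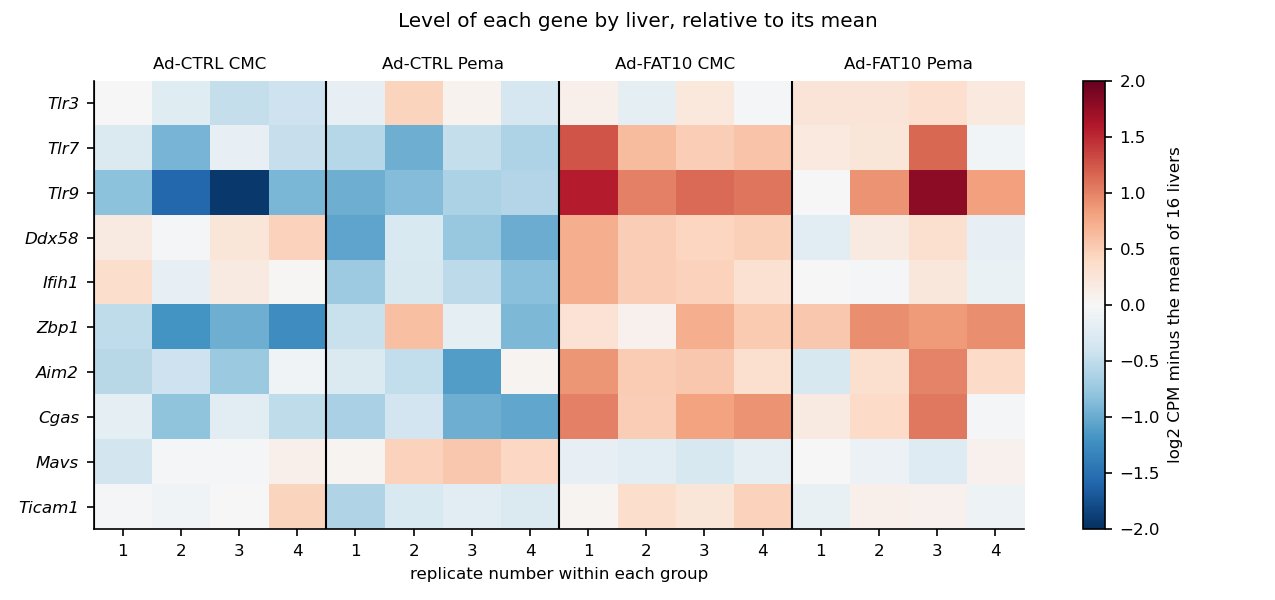
Log2 CPM of each gene in each of 16 livers minus its mean over them, coloured from -2 (blue) to 2 (red), with replicate numbers under the 4 groups. Tlr7, Tlr9, Aim2 and Cgas are reddest in Ad-FAT10 CMC replicate 1 and Ad-FAT10 Pema replicate 3, each the highest of its group for 7 of 10 genes.

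Markers of several immune cell types moved with the vector in the same libraries. Beside the marker counts for Ad-FAT10, 22.5% of all genes were called higher and 20.2% lower under CMC. Under pemafibrate the shares were 21.2% and 20.5%. Of 8 monocyte and recruited macrophage markers, 8 were higher with Ad-FAT10 under CMC and 7 under pemafibrate. Their summed level ran from 42.4 to 53.3 CPM in Ad-CTRL CMC, 36.3 to 41.7 in Ad-CTRL Pema, 86.1 to 203 in Ad-FAT10 CMC and 66.9 to 112 CPM in Ad-FAT10 Pema livers. Much of that sum was Spp1, also a cholangiocyte marker, at 32.8 CPM in Ad-CTRL CMC and 69.0 CPM in Ad-FAT10 CMC livers, where 1 liver reached 144 CPM. Neutrophil markers were higher in 6 and 5 of 6 tested, with sums of 9.33 to 19.9, 7.38 to 10.6, 40.2 to 120.3 and 17.7 to 24.8 CPM in the same order. T and NK cell markers were higher in 7 of 8 under both treatments, with sums of 12.0 to 23.7, 10.1 to 15.8, 29.9 to 37.3 and 23.4 to 52.5 CPM. No marker was at 0 counts in every library of a group, but Ly6g and Mpo of the neutrophil list had 3 counts or fewer in each Ad-CTRL library.

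Plasmacytoid dendritic cells, which are known for TLR7 and TLR9, had markers at low levels, with group means of 0.709 to 1.17 CPM for Siglech. Of 4 tested, 1 was higher with Ad-FAT10 under CMC and 2 under pemafibrate, and Siglech and Ccr9 did not pass in either. The summed level was 3.00 to 3.64, 2.11 to 3.47, 4.44 to 5.06 and 2.78 to 6.79 CPM. Conventional dendritic cell markers had 1 higher and 1 lower of 5 under CMC and 3 higher and 1 lower under pemafibrate, with sums of 14.1 to 16.1, 13.4 to 17.6, 23.2 to 27.2 and 17.9 to 51.5 CPM. Most of the rise in that sum was Itgax, at 3.24 CPM in Ad-CTRL CMC and 14.3 CPM in Ad-FAT10 CMC livers. In Ad-FAT10 Pema livers Itgax reached 31.9 CPM. The marker that fell was Zbtb46, by 0.52 under each treatment (adjusted p = 0.00822 and 0.00763). In Ad-FAT10 Pema replicate 3, where Tlr7, Tlr9, Aim2 and Cgas were highest, the plasmacytoid (6.79 CPM), conventional dendritic (51.5 CPM), T and NK (52.5 CPM), monocyte (112 CPM) and Kupffer (755 CPM) sums were also the highest of their group. So were the hepatocyte (61268 CPM), sinusoidal endothelial (163 CPM), stellate (197 CPM) and B and plasma cell (5.43 CPM) sums. The high sums in this liver were thus not particular to immune cells. Neutrophil and cholangiocyte sums were highest in replicate 1 of this group.

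Kupffer cell markers split. With Ad-FAT10 under CMC 2 of 9 were higher and 4 lower, and under pemafibrate 4 and 4, while their summed level overlapped between all groups (467 to 657, 327 to 583, 535 to 702 and 397 to 755 CPM). Clec4f fell from 88.0 to 11.9 CPM under CMC (log2 change -2.89, adjusted p = 3.03e-06), Timd4 from 13.0 to 1.14 CPM (-3.55, adjusted p = 1.74e-06) and Vsig4 from 21.0 to 2.47 CPM (-3.11, adjusted p = 1.24e-06). Cd5l rose by 0.77 (adjusted p = 0.00644) and C1qb by 0.51 (adjusted p = 0.0209). Most of the summed level was Cd5l and the C1q genes. In Ad-FAT10 Pema livers Cd5l, C1qa, C1qb and C1qc had means of 211, 68.7, 94.5 and 97.1 CPM. Clec4f, Vsig4 and Timd4 had means of 8.04, 1.35 and 0.518 CPM there. The part of these cell types in the levels of the 10 sensors and adaptors was not tested. For pemafibrate in Ad-CTRL livers, where Ddx58 and Ifih1 fell most, 1 of 9 Kupffer, 1 of 8 monocyte and 1 of 8 T and NK markers were lower, none of the neutrophil or dendritic markers was called, and 5 of 8 hepatocyte markers were lower. For pemafibrate in Ad-FAT10 livers, where both also fell, 6 of 6 neutrophil, 5 of 8 hepatocyte, 1 of 8 monocyte and 1 of 8 T and NK markers were lower. Beside these counts for pemafibrate, 14.4% of all genes were called lower in Ad-CTRL livers and 12.5% in Ad-FAT10 livers. Single markers called lower on a list of 8 or 9 are near those shares.

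The other genes of the pathways were read from 6 lists. Their counts stand beside the shares of all genes called higher and lower. These shares were 22.5% and 20.2% for Ad-FAT10 under CMC, and 21.2% and 20.5% under pemafibrate. For pemafibrate they were 16.2% and 14.4% in Ad-CTRL livers, and 12.9% and 12.5% in Ad-FAT10 livers. Of 37 other sensors of microbes, 23 rose and none fell with Ad-FAT10 under CMC (median log2 change 0.54), and 25 rose and 1 fell under pemafibrate (0.62). Tlr2, the receptor of bacterial lipoproteins, rose from 14.6 ± 3.85 to 59.3 ± 22.1 CPM under CMC (2.02, adjusted p = 5.49e-06). It was also the sensor on the list that fell with pemafibrate in Ad-FAT10 livers (-1.45, adjusted p = 0.000134). Nlrp3, an inflammasome sensor, rose by 1.59 under CMC (adjusted p = 5.95e-06) and Tlr13, a receptor of bacterial ribosomal RNA, by 1.55 (adjusted p = 2.55e-05). Pemafibrate in Ad-CTRL livers raised 2 and lowered 4 of the 37 (median -0.02), among them Ddx60 (-0.82, adjusted p = 0.00272). Oas1 and Ifi200 family members on this list have near-identical copies, so their counts are uncertain.

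Genes that traffic the receptors or handle their ligands were mixed. With Ad-FAT10 8 of 23 rose under each treatment, and 3 fell under CMC (median 0.11) and 2 under pemafibrate (0.18). Trex1, the other gene on this list of 24, was at 0 CPM in every liver and was not tested. How reads were assigned to genes is not given, so this does not show that its RNA was absent. Unc93b1, the chaperone that carries TLR3, TLR7 and TLR9 to endosomes, rose by 0.44 under CMC (adjusted p = 0.00905) and by 0.82 under pemafibrate (adjusted p = 7.16e-05). In Ad-CTRL livers it fell with pemafibrate by 0.51 (adjusted p = 0.00446), and 2 of the 23 rose and 5 fell in all (median -0.08). Ctss, a protease that cleaves endosomal TLRs, rose by 1.12 (adjusted p = 2.82e-05) and 1.36 (adjusted p = 6.37e-06) with Ad-FAT10. Rnf125, a ubiquitin ligase for RIG-I, rose by 0.75 with pemafibrate in Ad-CTRL livers (adjusted p = 0.00167). In Ad-FAT10 livers its log2 change was -0.28 (adjusted p = 0.226), and under pemafibrate Rnf125 was lower with Ad-FAT10 (-1.01, adjusted p = 0.000121). Pemafibrate in Ad-FAT10 livers lowered 2 and raised none of the 23 (median -0.02).

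Of 31 further adaptors, kinases and transcription factors, 14 rose and 2 fell with Ad-FAT10 under CMC (median 0.28), and 12 and 4 under pemafibrate (0.14). Ikbke, the kinase that acts beside TBK1 downstream of MAVS and TRIF, rose by 1.39 under pemafibrate (adjusted p = 3.31e-05), and Irf8 rose by 1.27 under CMC (adjusted p = 2.61e-05). With pemafibrate 6 rose and 6 fell in Ad-CTRL livers (median 0.02), and 2 and 6 in Ad-FAT10 livers (-0.11). Of all genes, 16.2% were called higher and 14.4% lower in Ad-CTRL livers, and 12.9% and 12.5% in Ad-FAT10 livers. Myd88, the adaptor of TLR7 and TLR9, rose in Ad-CTRL livers (0.78, adjusted p = 0.000208) and in Ad-FAT10 livers (0.47, adjusted p = 0.012). Irak2, a kinase beneath it, rose by 0.92 (adjusted p = 6.61e-06) and 0.57 (adjusted p = 0.000873). Ikbkb fell with pemafibrate under both vectors, by 0.42 (adjusted p = 0.000233) and 0.33 (adjusted p = 0.00221).

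In the inflammasome and necroptosis list 7 of 12 genes rose and 2 fell with Ad-FAT10 under CMC (median 0.73), and 7 and 1 under pemafibrate (0.51). Mlkl, the executor of necroptosis downstream of ZBP1 and RIPK3, rose from 10.4 ± 1.15 to 35.4 ± 6.76 CPM under CMC (1.77, adjusted p = 7.52e-06) and by 1.70 under pemafibrate (adjusted p = 1.21e-05). Pycard, the adaptor of AIM2, rose by 1.87 under pemafibrate (adjusted p = 1.7e-05), and Gsdmd, the pore-forming protein gene of pyroptosis, by 0.96 (adjusted p = 1.04e-05). With pemafibrate 2 rose and 2 fell in Ad-CTRL livers (median -0.10) and 1 and 2 in Ad-FAT10 livers (-0.07). Casp8 rose under both vectors, by 1.25 (adjusted p = 8.17e-07) and 1.08 (adjusted p = 6.78e-06), and Il18 fell by 0.85 (adjusted p = 0.000103) and 0.59 (adjusted p = 0.00234).

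The type I and III interferon genes on the list were near or at 0, and genes of these families outside it were not read. Ifna1, Ifna2, Ifna4, Ifna5, Ifnl2 and Ifnl3 had a count of 0 in all 16 libraries, and Ifnb1 had 2 counts in all. A count of 0 allows up to 0.104 to 0.161 CPM in each library, before TMM scaling. Of the 15 interferon, receptor and JAK-STAT genes tested, 6 rose and none fell with Ad-FAT10 under CMC (median 0.39) and 7 rose and 2 fell under pemafibrate (0.39). Socs1, a feedback inhibitor of cytokine signalling, rose by 1.99 under CMC (adjusted p = 3.87e-05). Pemafibrate in Ad-CTRL livers raised 1 and lowered 4 (median -0.06), and Stat2, a transcription factor gene of interferon signalling, fell by 0.57 (adjusted p = 3.74e-05). In Ad-FAT10 livers it raised none and lowered 2, Jak1 and Tyk2 (median -0.08).

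Interferon-stimulated genes rose with Ad-FAT10 in 18 of 25 under CMC (median 0.73) and 21 of 25 under pemafibrate (0.92), and none fell. Gbp2 rose by 2.05 under CMC (adjusted p = 6.38e-05), with near-identical family members as a limit, and Psmb8, an immunoproteasome subunit gene, by 1.27 under pemafibrate (adjusted p = 4.7e-05). With pemafibrate in Ad-CTRL livers 1 rose, 5 fell and 19 were not called (median -0.24). Mx2 (-0.87, adjusted p = 0.00192) and Ifit3 (-0.96, adjusted p = 0.00863) were among those that fell. These 1 and 5 of 25 stand beside 16.2% of all genes called higher and 14.4% called lower. In Ad-FAT10 livers 1 rose, Bst2 (0.57, adjusted p = 0.00208), and none fell (median 0.06). No gene of the 6 lists was called in the interaction.

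**Figure D5:**
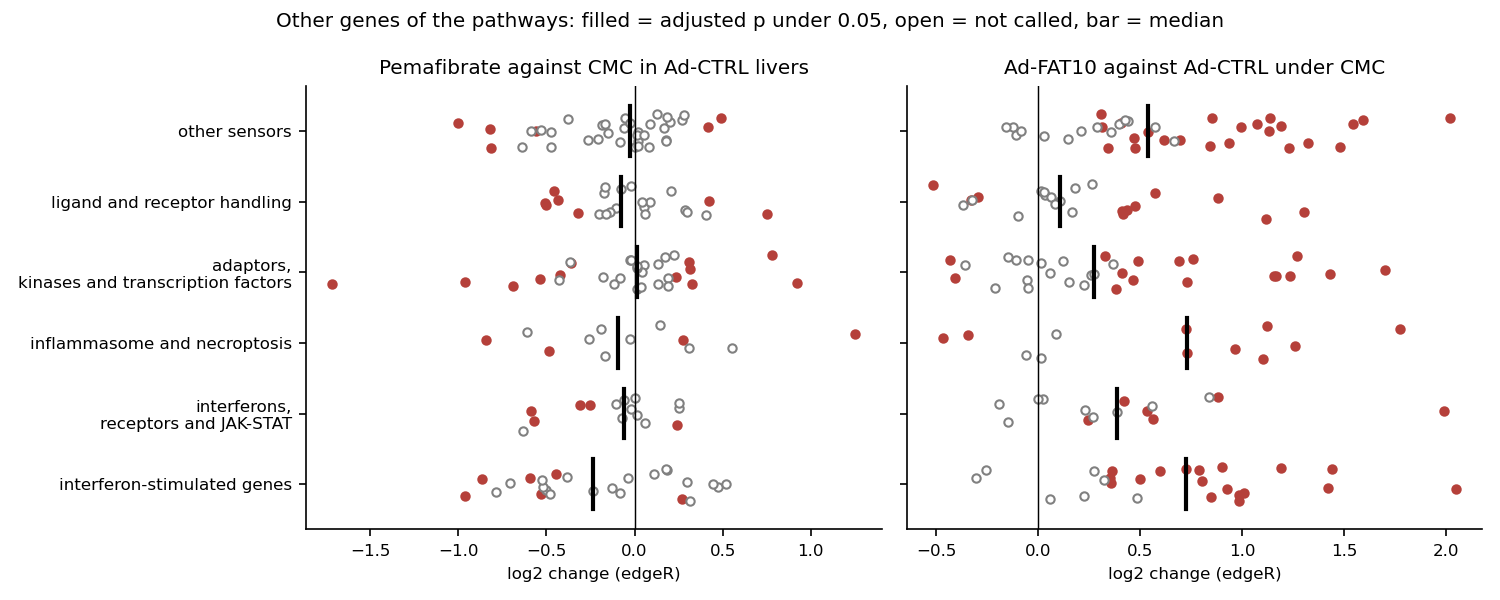
Log2 change (edgeR) of each tested gene of the 6 pathway lists for pemafibrate in Ad-CTRL livers (left) and for Ad-FAT10 under CMC (right), filled where the adjusted p is under 0.05, with bars for medians and a random vertical offset. The medians for Ad-FAT10 lie between 0.11 and 0.73, and the median of interferon-stimulated genes for pemafibrate is -0.24.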

How the data were processed

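The authors deposited raw counts per Ensembl gene, 1 file per liver, not normalized. The submitters' processing notes name the build GRCm39, STAR 2.7.6 and DESeq2 (1.36.0 and 2.11.40.6). Counting program, annotation release and strand use: not given in the sources used here. Libraries were poly(A)-selected and dUTP strand-marked, per the labels' protocols. No batch is labelled. Symbols and exonic lengths came from GENCODE M21 (GRCm38), which matched 52083 identifiers (94.0%).

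Counts were fitted in R 4.3.3 with edgeR 4.0.16 (filterByExpr by group, TMM, quasi-likelihood, 1 mean per group over all 16 libraries, common BCV 0.151 on 12 residual degrees of freedom). Every adjusted p of this main fit is Benjamini-Hochberg over 14770 genes. Each alternative fit filtered its genes anew, or not at all, and adjusted over its own genes. An adjusted p is from edgeR unless DESeq2 is named. An SE is the absolute log2 change divided by the square root of the F statistic, so it restates the test. Log2 CPM used a prior count of 2. No replicate pair was a duplicate (chi-square per gene 14.52 to 119). The model was tested on simulated counts. DESeq2 1.42.0, other scalings, no filter, a replicate block, fits of the groups compared alone and fits without each library were the alternatives.

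The members and the 6 pathway and 11 marker lists were chosen with earlier results of these data known. Genes named are from the members, up to 3 called genes with the smallest p per list and comparison, the 3 genes most like each member, Ubd and, chosen after their values were seen, the marker genes given. The text prints part of these.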

Additional observations from a re-analysis of the deposited data

Results flagged for a closer look

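In 3 of the 40 sets of 4 livers (10 genes in 4 groups), 1 liver lay far from the other 3, where chance gives about 1 in 20. Tlr7 in Ad-FAT10 CMC replicate 1 was 6.83 CPM, with the others at 3.97 to 4.40 CPM. Tlr7 in Ad-FAT10 Pema replicate 3 was 6.35 CPM, with the others at 2.70 to 3.32 CPM. Ticam1 in Ad-CTRL CMC replicate 4 was 20.3 CPM, with the others at 14.2 to 15.0 CPM.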

How the results depend on the processing

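Of 290 values recomputed under other scalings, filters, fits and tools, 285 kept their direction and side of the threshold. Ticam1 lost its call for Ad-FAT10 under pemafibrate with DESeq2's size factors (0.32, adjusted p = 0.051) and with DESeq2 (0.33, adjusted p = 0.0516), and Ddx58 gained one under CMC with the groups compared alone (0.31, adjusted p = 0.0403). Aim2 for pemafibrate in Ad-CTRL livers turned to -0.042 with upper-quartile scaling. With the replicate block 5, 2, 6, 9 and 0 members were called in the 5 comparisons, as without it, and the interaction of Cgas turned to -0.042. Replicate numbers do not pair the livers: 24 same-number pairs correlated at -0.172 to 0.172 and only 4 of 16 livers correlated best with their own number. Over all genes the interaction had 23 calls, but 116 with DESeq2, 93 with no filter and 16 in the paired fit. The causes were not tested.

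Without 1 library at a time, 755 of 800 values held. For Ad-FAT10 under pemafibrate the log2 change went as low as 0.801 for Tlr7, 1.445 for Tlr9 and 1.004 for Cgas, each still called. Under CMC that of Tlr7 went as low as 1.028, also still called. Members called ranged from 4 to 6 for pemafibrate in Ad-CTRL livers and from 1 to 4 in Ad-FAT10 livers, from 5 to 7 and from 7 to 9 for Ad-FAT10 under CMC and pemafibrate, and stayed at 0 for the interaction. In Ad-FAT10 livers the pemafibrate count was 1 without Ad-FAT10 CMC replicate 2 or Ad-FAT10 Pema replicate 1 or 4, and 4 without Ad-FAT10 Pema replicate 3. Directions that turned belonged to uncalled values: Aim2 with pemafibrate (-0.18 to 0.21 in Ad-CTRL, -0.42 to 0.031 in Ad-FAT10 livers), Tlr9 with pemafibrate in Ad-FAT10 livers (-0.59 to 0.036) and the interactions of Tlr3 (-0.18 to 0.092), Tlr7 (-0.43 to 0.12), Aim2 (-0.45 to 0.031) and Cgas (-0.29 to 0.16). The Ticam1 call for Ad-FAT10 under pemafibrate was lost without Ad-FAT10 Pema replicate 2, 3 or 4, Ad-CTRL Pema replicate 1, 2 or 4, or replicate 3 of either CMC group (adjusted p 0.0526 to 0.139). Depth is lowest for Tlr9, Cgas, Aim2 and Tlr7. PCR reads are not independent molecules, so the limits set by a count of 0 cover counting error only.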

Other observations

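Markers of sinusoidal endothelial cells, stellate cells and hepatocytes were mostly lower with Ad-FAT10. Of all genes, 20.2% were called lower and 22.5% higher with Ad-FAT10 under CMC, and 20.5% and 21.2% under pemafibrate. Of 7 sinusoidal endothelial cell markers 6 fell under each treatment, with summed levels of 185 to 269 and 194 to 309.5 CPM in the Ad-CTRL groups and 104 to 154 and 107 to 163 CPM in the Ad-FAT10 groups. Clec4g, an endothelial lectin gene, fell by 1.32 on the log2 scale under CMC (adjusted p = 3.61e-05). Stellate cell markers fell in 4 of 6 under CMC and 3 of 6 under pemafibrate, and hepatocyte markers in 6 and 7 of 8, among them Apoa1, which fell by 0.99 (adjusted p = 0.000131). B and plasma cell markers fell in 4 and 3 of 5. Of 5 cholangiocyte markers 2, Sox9 and Spp1, rose under CMC and none was called under pemafibrate. Neutrophil markers were the immune list that fell with pemafibrate in Ad-FAT10 livers, in 6 of 6 tested (Csf3r -0.86, adjusted p = 0.000289), and in Ad-CTRL livers none of the 6 was called. Of all genes, pemafibrate lowered 12.5% in Ad-FAT10 livers and 14.4% in Ad-CTRL livers. The interaction was called for none of the 6 neutrophil markers, with a median of -1.03, so the responses are not shown to differ between the vectors.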
